A study of Mus musculus with 12 samples.

Results

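Siglecs are sialic acid-binding lectins of the leukocyte surface. This account covers the 7 genes of the family that mouse leukocytes are best known for and that were chosen by name, *Siglec1*, *Cd22*, *Cd33*, *Siglece*, *Siglecf*, *Siglecg* and *Siglech*, among the 31053 genes of the expression tables. All 7 had unique molecular identifiers (UMIs, each tagging 1 captured mRNA molecule) in both tables. Female mice on the C57BL/6 background carried the polyoma middle T oncogene under the MMTV promoter, which is active in mammary epithelium, and formed breast tumors without further treatment. They had either the wild-type protease-activated receptor 2 (PyMT-PAR2-WT) or the G37I mutant, which does not respond to coagulation factor Xa (PyMT-PAR2-G37I). Cells selected with CD11c beads came from late tumors and cells selected with CD4 and CD8 beads from mid-size tumors, 3 samples per genotype and selection. Cells were frozen and thawed before capture on the 10x Genomics platform.

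Each table pools the 6 samples of a selection, and its barcodes name no sample. Each selection is therefore 1 sample here, no test was possible, and the genotypes were not compared. Levels are UMIs of a gene per 1000000 UMIs of a gate (CPM), with an exact 95% Poisson interval that covers counting error only, and a count of 0 is given with the limit set by 3 counts. Fold intervals are exact and of the same kind. Barcodes run through the alphabet 6 times in each table, and the range over these barcode runs with at least 10 cells of a gate is given as a description of spread. No run was tied to a sample. The CD11c-selected table kept 11639 cells and 123642015 UMIs (13314063 to 24231244 per run), and the CD4/CD8-selected table kept 22806 cells and 135965765 UMIs (16203038 to 30168668 per run). Before cells were filtered, 76 and 51 barcodes recurred within a table and 92 stood in both.

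Cells were gated on raw UMIs of genes other than the 7. The macrophage gate needed the complement genes *C1qa*, *C1qb* and *C1qc* with further macrophage genes that included *Csf1r* and *Adgre1*, and held 5952 CD11c-selected cells, 51.1% of the table. Within it, resident-like cells were gated on *Lyve1*, *Cd209f*, *Cd209g* and *Fcna* (191 cells), lipid-associated cells on *Gpnmb*, *Atp6v0d2* and *Htr2b* (158), and others on *Il10* (493), *Thbs1* (289) or *Tmem119*, *Zmynd15* and *Tlr12* (2058). Conventional dendritic cells of type 1 (cDC1, 446 cells), cDC2 (324), migratory DC (200), *Ear2* *Fn1* myeloid cells (778) and neutrophils (80) were gated in the same table. Plasmacytoid DC (pDC) were more numerous in the CD4/CD8-selected table (54 cells against 15), which was mostly CD8 T cells (15566). That table also had 871 macrophages, of which 457 stood in the third barcode run, and folds against them are given with and without that run (an alternative chosen after the data had been seen). In all 24 gates of at least 50 cells that had a list of separate check markers, the list of the gate's own type had the highest summed level and every marker of it was detected. All macrophage subgates had the same macrophage list and all T cell gates the same T cell list. The check therefore covers the lineage and cannot tell the subgates apart. No gate took 27.2% of CD11c-selected and 8.78% of CD4/CD8-selected cells, with median depths of 1802 and 832 UMIs against 7943 and 4361 over all kept cells. Doublets were not removed, and 139 and 248 cells that passed the gates of several lineages were set aside.

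Most Siglecs carry immunoreceptor tyrosine-based inhibitory motifs that recruit the phosphatases SHP-1 and SHP-2 when a sialylated ligand is bound. Siglec-1, the large adhesion receptor of resident macrophages also called sialoadhesin or CD169, lacks these motifs, and Siglec-H of pDC signals instead through the adapter DAP12, the product of *Tyrobp*. CD22 and Siglec-G are best known as inhibitory receptors of B cells, Siglec-E and Siglec-F as receptors of neutrophils and eosinophils respectively, and CD33 as a myeloid marker. In GENCODE M21 on GRCm38, *Siglec1* lies at chr2:131069220-131086765 on the minus strand. The other 6 genes are on chromosome 7. *Siglecf* (43351341 to 43359531, plus strand), *Siglecg* (43408204 to 43418358, plus), *Cd33* (43524216 to 43544428, minus) and *Siglece* (43651070 to 43660161, minus) stand within 308821 bp. *Cd22* (30865402 to 30880342, minus) and *Siglech* (55768178 to 55778925, plus) lie 12470999 and 12108017 bp outside of that group.

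The 4 promoters below are those of *Siglecf*, *Cd33* and *Siglece*, which lead in the neutrophil gate, and of *Siglech*, which leads in pDC. Those of *Cd22* and *Siglecg* are not shown. Each is the 250 bases before the RefSeq start, 5′ to 3′ on the gene's own strand (GRCm38.p6). The capitals in *Siglecf* and *Cd33* mark the longest stretch that these promoters share, those in *Siglece* mark CTTCCTC, the reverse complement of the PU.1 core GAGGAAG, and those in *Siglech* mark CAGATG, the reverse complement of the E box CATCTG.
*Siglecf*, chr7:43351091-43351340, plus strand: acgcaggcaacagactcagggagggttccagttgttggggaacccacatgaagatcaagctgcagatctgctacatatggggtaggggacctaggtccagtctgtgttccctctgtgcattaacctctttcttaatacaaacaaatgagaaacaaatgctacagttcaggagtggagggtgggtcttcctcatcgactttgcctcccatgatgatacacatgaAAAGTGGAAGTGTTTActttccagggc
*Cd33*, chr7:43533172-43533421, minus strand: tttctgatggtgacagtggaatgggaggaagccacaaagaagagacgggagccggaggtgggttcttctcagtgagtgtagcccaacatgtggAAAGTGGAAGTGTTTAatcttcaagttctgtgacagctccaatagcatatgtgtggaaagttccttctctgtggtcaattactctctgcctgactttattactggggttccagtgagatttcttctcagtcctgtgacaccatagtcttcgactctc
*Siglece*, chr7:43660162-43660411, minus strand: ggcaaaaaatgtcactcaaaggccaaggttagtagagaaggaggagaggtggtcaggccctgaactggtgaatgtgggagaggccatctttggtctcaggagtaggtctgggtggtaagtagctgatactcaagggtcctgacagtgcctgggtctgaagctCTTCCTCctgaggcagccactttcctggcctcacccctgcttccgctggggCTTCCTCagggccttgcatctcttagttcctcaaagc
*Siglech*, chr7:55767934-55768183, plus strand: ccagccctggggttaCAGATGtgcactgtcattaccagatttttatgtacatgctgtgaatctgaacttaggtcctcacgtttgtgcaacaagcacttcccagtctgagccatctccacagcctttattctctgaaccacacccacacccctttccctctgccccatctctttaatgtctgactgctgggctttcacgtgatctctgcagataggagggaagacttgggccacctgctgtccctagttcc

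The stretch shared by *Siglecf* and *Cd33* is 16 bases long and begins 27 bases before the start of *Siglecf* and 157 bases before that of *Cd33*. It was found in 2 of 27025 promoters, searched on both strands over 300 bases. In the other 14 of the 15 pairs among the 6 promoters that matched (none for *Siglec1*), the longest shared stretch had 7 to 10 bases. The RefSeq starts of *Cd33*, *Cd22*, *Siglecg* and *Siglech* lie inside the spans that GENCODE gives these genes. GAGGAAG or its reverse complement occurred in 4 of the 6 promoters (*Cd33*, *Siglece*, *Siglecf*, *Siglecg*) and in 10.4% of all promoters. CATCTG or its reverse complement occurred in 1 of 6 (*Siglech*) and in 14.5% of all. The E box CAGCTG and the interferon response element, present in 12.8% and 3.04% of all, were in 0 of 6. A match of letters describes the sequence and does not show that a factor binds.

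**Figure D1:**
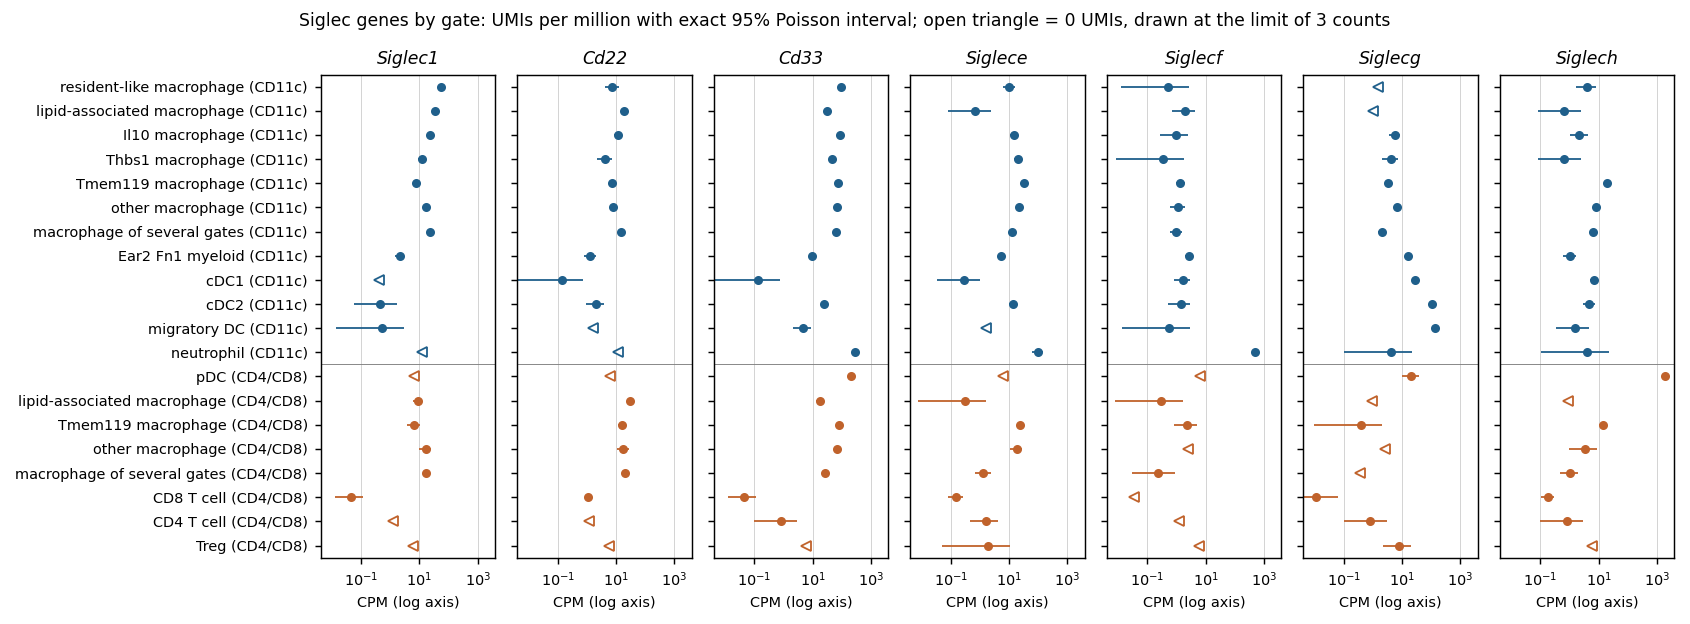
Level of each Siglec gene (CPM, log axis) in 20 gates, blue for CD11c-selected and orange for CD4/CD8-selected cells; bars are exact 95% Poisson intervals and open triangles are gates with 0 UMIs, drawn at the limit of 3 counts. Levels peak in different gates, with *Siglec1* at 55.4 CPM in resident-like macrophages, *Siglecf* at 507, *Cd33* at 282 and *Siglece* at 96.6 in neutrophils, *Siglecg* at 136 in migratory DC, and *Siglech* at 1889 in pDC.

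*Siglec1* was a macrophage transcript, highest in the resident-like gate. Its level there was 55.4 CPM from 111 UMIs (95% CI, 45.6 to 66.7), and the 6 barcode runs gave 92.8, 32.1, 83.4, 42.1, 47.1 and 59.5. The lipid-associated gate followed at 33.0 CPM (26.9 to 40.1), with 16.5, 37.4, 35.5 and 18.6 in 4 runs. Values of the gates thus overlapped between runs, but resident-like cells were higher in 4 of 4 runs that held both. The fold was 1.68 (1.27 to 2.22). The *Il10* gate (22.9 CPM), the macrophages of several gates (22.8), those of no macrophage subgate (16.5) and the *Thbs1* gate (12.3) came next. *Tmem119* macrophages, the largest gate, had 7.51 CPM (6.47 to 8.68; runs 5.40 to 13.7). Resident-like cells exceeded them 7.37-fold (5.77 to 9.38), in 6 of 6 runs without overlap. The macrophage gates held 91.2% of the 1249 *Siglec1* UMIs of CD11c-selected cells.

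Outside macrophages *Siglec1* was low. *Ear2* *Fn1* myeloid cells had 2.09 CPM, cDC2 had 2 UMIs, migratory DC 1 UMI, and cDC1 none, which allows 0.411 CPM. CD8 T cells had 4 UMIs (0.0454 CPM). Of resident-like cells, 34.0% had a UMI, against 0 of 446 cDC1, although cDC1 were the deeper cells (median 15186 against 8190 UMIs). At 2000 UMIs per cell the resident-like share was 5.91%. The monocyte gate had only 44 cells, fewer than the 50 asked of a gate for the order, and its 13 *Siglec1* UMIs gave 31.0 CPM (16.5 to 53.0).

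*Cd22*, the B cell coreceptor, was found mainly in macrophages. The B cell gate had just 9 CD11c-selected cells, with 3 *Cd22* UMIs among 30345 UMIs in all. That share lies above the level of every macrophage gate, but 3 UMIs are too few to order B cells against macrophages. Among gates of at least 50 cells, lipid-associated macrophages led in both tables. They had 29.4 CPM (23.8 to 35.8) among CD4/CD8-selected and 19.5 (14.8 to 25.1) among CD11c-selected cells. The first interval overlaps that of the CD4/CD8-selected macrophages of several gates (20.9 CPM). Of the 149 CD4/CD8-selected cells, 138 (92.6%) stood in the third barcode run. The other 11 cells gave 79.6 CPM (42.4 to 136), so the level there rests on 1 run, and the gate is then too small for the order. In CD11c-selected cells the 4 runs of the lipid-associated gate gave 11.8, 26.2, 11.8 and 26.3 CPM. Each was above the *Tmem119* gate of the same run, the fold being 2.71 (1.98 to 3.66). Over the resident-like gate (7.48 CPM) the fold was 2.60 (1.46 to 4.94), and over the *Thbs1* gate (4.32 CPM) 4.51 (2.44 to 8.96), each in 4 of 4 runs. Over the *Il10* gate (11.7 CPM) it was 1.67 (1.12 to 2.49), in 3 of 4.

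*Siglec1* and *Cd22* thus did not have the same order within macrophages. *Siglec1* was higher in resident-like than in lipid-associated cells and *Cd22* lower. CD8 T cells had 99 *Cd22* UMIs in 15566 cells (1.12 CPM; runs 0.488 to 2.09), and the lipid-associated gate of the same table was 26.1-fold higher (19.6 to 34.9), or 69.0-fold without the third run. A *Cd22* UMI was seen in 45.0% of these macrophages and in 0.597% of CD8 T cells, at median depths of 21284 and 4721 UMIs. At 2000 UMIs per cell the shares were 5.37% and 0.189%. Neutrophils, CD4/CD8-selected pDC and migratory DC had no *Cd22* UMI, which allows 12.1, 6.27 and 1.59 CPM. The limit for neutrophils lies above the 10.0 CPM of all CD11c-selected macrophages, so the 2 are not ordered. The gene *Gm29439* overlaps *Cd22* on the other strand.

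*Cd33* had 5602 UMIs in CD11c-selected cells, 81.9% of them in macrophages. Its highest level was nevertheless in the neutrophil gate, at 282 CPM (220 to 356) from 70 UMIs in 41 of 80 cells, and the 3 runs with enough cells gave 270, 293 and 256. The pDC gate of the CD4/CD8-selected table followed at 207 CPM (168 to 252), with 222 and 249 in 2 runs. The intervals of these gates overlap, and they come from different tables. Neutrophils exceeded all CD11c-selected macrophages 4.10-fold (3.19 to 5.19), in 3 of 3 runs. The pDC exceeded the CD4/CD8-selected macrophages 5.18-fold (4.15 to 6.41), in 2 of 2 runs. Without the third run the macrophages had 82.2 CPM in place of 39.9, the pDC 189, and the fold was 2.29.

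Among macrophages *Cd33* ran from 96.8 CPM in resident-like cells (runs 82.5 to 133) through 87.7 in the *Il10* gate, 74.7 in the *Tmem119* gate and 47.2 in the *Thbs1* gate to 31.0 in lipid-associated cells (runs 17.4 to 52.0). The runs of the first and last did not overlap, and the fold was 3.12 (2.43 to 4.03). Resident-like and *Il10* macrophages were not told apart at this depth, with a fold of 1.10 (0.922 to 1.32) and resident-like cells higher in 3 of 5 runs. *Ear2* *Fn1* cells had 9.86 CPM, 9.82-fold below the resident-like gate in 6 of 6 runs. The dendritic gates differed. The cDC2 gate had 24.5 CPM (107 UMIs; runs 8.99 to 44.0), migratory DC 4.78, and cDC1 a single UMI in 446 cells. The cDC2 level was 179 times that of cDC1, with a counting interval of 31.4 to 7123, and was higher in 6 of 6 runs. Without the second run cDC1 had no UMI and the level of cDC2 was at least 39.8-fold higher. A *Cd33* UMI was seen in 19.8% of cDC2 and 0.224% of cDC1, although cDC1 were the deeper cells (median 15186 against 12335 UMIs).

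*Siglece* was highest in neutrophils and, among macrophages, in the *Tmem119* gate. The neutrophil gate had 96.6 CPM (61.9 to 144) from 24 UMIs, and 84.5, 29.3 and 114 CPM in 3 runs, the lowest of them from 1 UMI. *Tmem119* macrophages had 33.9 CPM (31.6 to 36.3), with 32.7, 26.3, 33.8, 33.4, 33.2 and 42.6 in the 6 runs. Neutrophils were 2.85-fold above them (1.82 to 4.27) in 2 of 3 runs. Of the other CD11c-selected macrophage gates, the cells of no subgate came next at 22.6 CPM (19.9 to 25.5). The *Tmem119* gate exceeded them 1.50-fold (1.31 to 1.73), in 5 of 6 runs. The *Thbs1* gate (19.6 CPM), the *Il10* gate (14.6), cDC2 (13.5) and resident-like macrophages (9.98; runs 4.25 to 12.5) were lower. Runs of the *Thbs1* gate gave 11.2 to 33.2 CPM and overlapped those of the *Tmem119* gate.

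Lipid-associated macrophages had almost no *Siglece*. There were 2 UMIs in 158 CD11c-selected cells (0.660 CPM; 0.0799 to 2.38) and 1 UMI in 149 CD4/CD8-selected cells (0.300 CPM). The *Tmem119* gate was 51.3-fold higher in the first table (14.2 to 425; 4 of 4 runs), 30.1-fold without the fifth run and at least 24.7-fold without the sixth. In the second table it was 81.2-fold higher (14.1 to 3256), which rests on the third run, since the other 11 lipid-associated cells had no UMI. Lipid-associated cells were also the deeper ones, with a median of 16609 against 10327 UMIs. A *Siglece* UMI was found in 1.27% of them and in 28.8% of *Tmem119* cells. The CD11c-selected migratory DC had no UMI, which allows 1.59 CPM. The pDC differed between tables, with 0 UMIs in the 54 CD4/CD8-selected cells, which allows 6.27 CPM, and 4 UMIs in the 15 CD11c-selected cells (30.2 CPM; 8.23 to 77.4).

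**Figure D2:**
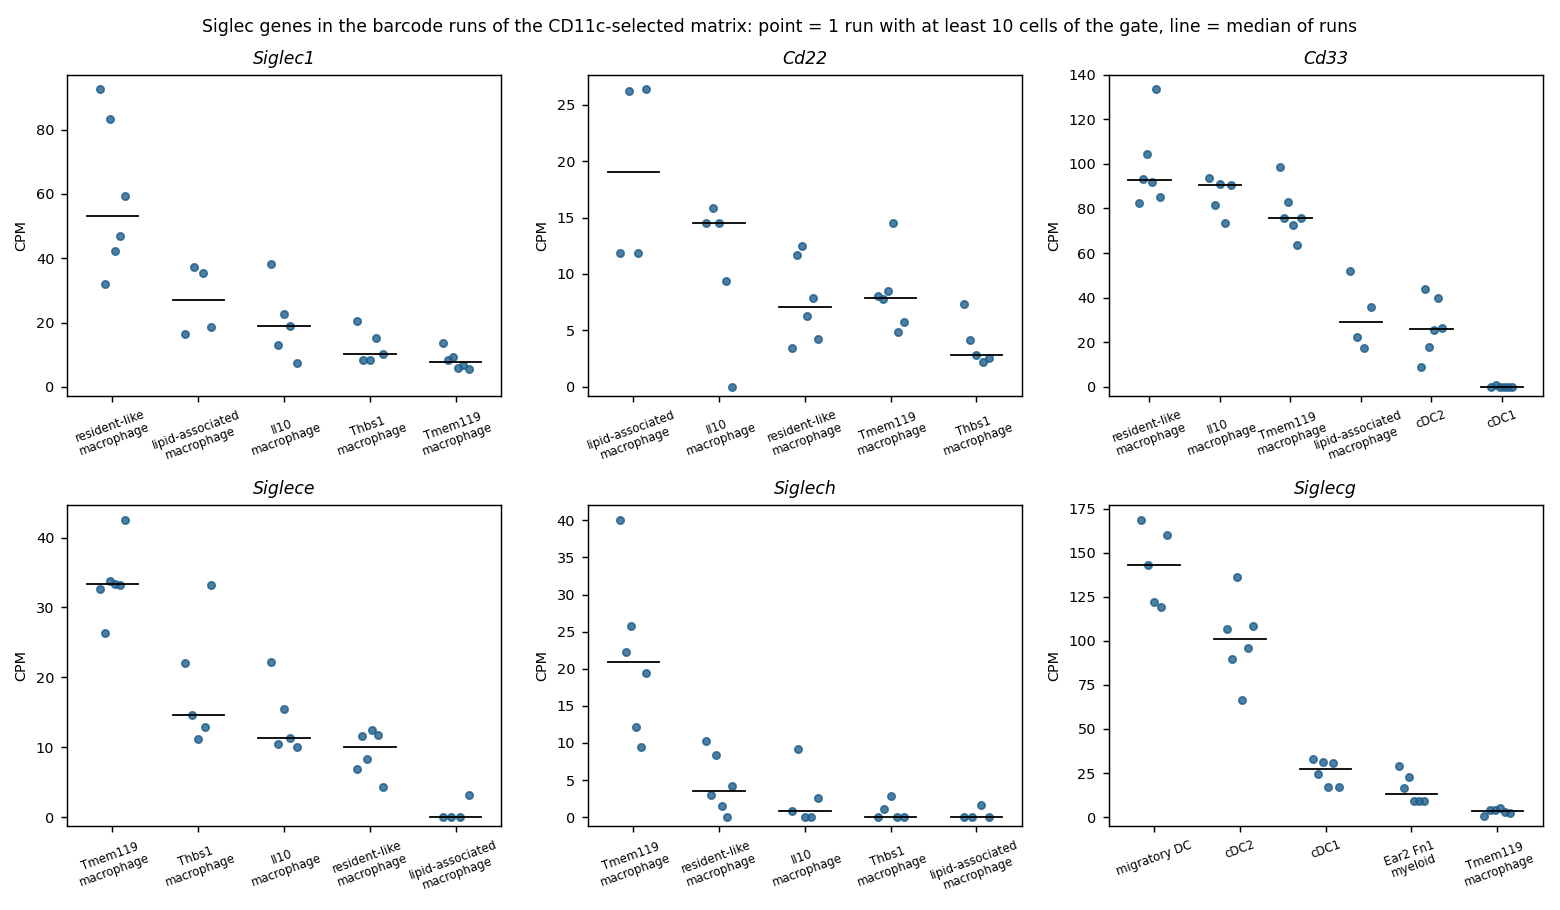
CPM of 6 Siglec genes in the barcode runs of the CD11c-selected table, in the 5 or 6 gates drawn for each gene (neutrophils and pDC are not drawn); each point is 1 run with at least 10 cells of the gate and lines are medians over runs. *Siglec1* and *Cd33* have lower medians in lipid-associated than in resident-like macrophages. *Siglece* and *Siglech* have their highest medians in the *Tmem119* gate among the macrophage gates drawn (runs 26.3 to 42.6 and 9.41 to 40.1 CPM). *Siglecg* is higher in migratory DC and cDC2 than in the other gates drawn.

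*Siglecf*, the mouse receptor used as a marker of eosinophils and alveolar macrophages, was found in the neutrophil gate. Its level was 507 CPM (423 to 604) from 126 UMIs, and 541, 674 and 505 CPM in the 3 runs with enough cells. All other gates of at least 50 cells had less than 3 CPM. *Ear2* *Fn1* myeloid cells came next with 2.77 CPM (2.02 to 3.71), followed by the macrophages and DC with intervals that overlapped from one to the next. The fold of neutrophils over *Ear2* *Fn1* cells was 183 (129 to 263), and over all CD11c-selected macrophages it was 445 (332 to 600). CD8 T cells had no *Siglecf* UMI, which allows 0.0340 CPM.

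Of the 80 neutrophil-gate cells, 52 (65.0%; 53.5 to 75.3) had a *Siglecf* UMI, with 18 cells at 1 UMI, 34 at 2 or more and a maximum of 9. In cDC1 the share was 2.47%, although these cells were deeper (median 15186 against 3112 UMIs). Thinning to 2000 UMIs gave 58.2% in neutrophils and 0.228% in cDC1. The gate had transcripts of neutrophils, with *S100a9* at 20953 CPM, *Csf3r* at 998 and *Cxcr2* at 382. The ungated markers *G0s2*, *Hdc* and *Trem1* were at 3398, 2085 and 713 CPM. *Retnlg*, also a gene of the gate, had only 6 UMIs in 4 of the 80 cells (24.2 CPM). *Ly6g*, a classical surface marker of mouse neutrophils, had 0 UMIs, which allows 12.1 CPM. The eosinophil genes *Il5ra*, *Epx*, *Prg2*, *Ear6* and *Alox15* also had 0 UMIs, *Ccr3* had 1, and the eosinophil gate took just 1 cell of the table. The eosinophil check markers *Cd9* and *Ccl6* are not reported here. The paper classed a cluster of the CD11c-selected cells as eosinophils, and whether cells of this gate belong to it was not tested.

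The macrophage transcript *Apoe* stood at 1477 CPM in the neutrophil gate, in 52 of 80 cells, while the macrophage marker *Trem2* was at 0. In the 28 cells without an *Apoe* UMI, *Siglecf* was 406 CPM (276 to 576), *Cd33* 262 and *Siglece* 144. A wider neutrophil gate of 135 cells gave *Siglecf* 403, *Cd33* 247 and *Siglece* 62.3 CPM. These alternatives were chosen after the data had been seen. *Cd33* was 288 CPM (214 to 379) in the cells with a *Siglecf* UMI and 268 (164 to 414) in those without, and *Siglece* 104 (61.4 to 164) and 80.4 (29.5 to 175), so that neither differed beyond counting error. Of the 432 *Siglecf* UMIs of CD11c-selected cells, 29.2% were in the neutrophil gate and 37.3% in cells of no gate. Reads of *Siglecf* were little shared with other genes. Of its 2915 stretches of 50 bases, 6 (0.206%) also occur in transcripts of *Siglecg* and *Gm29791*. The value for *Siglecg* was 4.48%, and those of the other 5 genes lay between 0 and 1.33%.

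**Figure D3:**
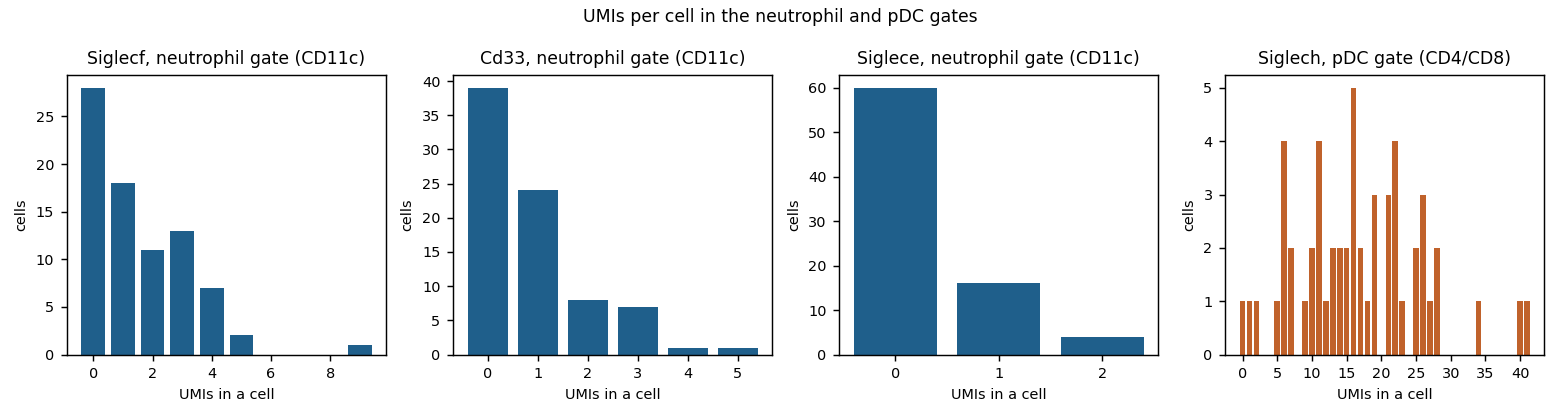
Cells by number of UMIs of *Siglecf*, *Cd33* and *Siglece* in the 80 cells of the neutrophil gate (CD11c-selected, blue) and of *Siglech* in the 54 pDC (CD4/CD8-selected, orange); the y axes count cells. *Siglecf* has 52 cells with a UMI, *Cd33* 41 and *Siglece* 20, and *Siglech* has a median of 16 UMIs per pDC.

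Among gates of at least 50 cells, *Siglecg* was highest in dendritic cells. Migratory DC, gated on *Ccr7* and *Fscn1*, had 136 CPM (120 to 154), and 169, 143, 122, 119 and 160 in 5 runs. cDC2 had 108 CPM (98.1 to 118), and 107, 89.4, 136, 66.4, 95.8 and 109 in 6 runs. The runs of these gates overlapped. The fold was 1.26 (1.08 to 1.47), with migratory DC higher in 4 of 5 runs. cDC1 were clearly lower, at 27.2 CPM (runs 17.1 to 33.1). cDC2 exceeded them 3.96-fold (3.35 to 4.70) in 6 of 6 runs, and migratory DC 5.01-fold (4.14 to 6.06). The pDC had 10 *Siglecg* UMIs (20.9 CPM; 10.0 to 38.4), an interval that overlaps those of cDC1 and of the *Ear2* *Fn1* gate (16.3 CPM; runs 9.03 to 29.0).

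Macrophages had little *Siglecg*, with 3.45 CPM over the gates of the CD11c-selected table, 31.2-fold below cDC2 (26.6 to 36.7). Resident-like and lipid-associated macrophages had 0 UMIs, which allows 1.50 and 0.990 CPM. Only 1 UMI was seen in the 15566 CD8 T cells, and 4 in the 96 regulatory T cells (7.83 CPM; 2.13 to 20.1). A *Siglecg* UMI was present in 42.5% of migratory DC, 56.5% of cDC2 and 32.3% of cDC1, at median depths of 9175, 12335 and 15186 UMIs. At 2000 UMIs per cell the shares were 22.7%, 19.8% and 4.56%. The conventional and migratory DC gates held 41.5% of the 2225 *Siglecg* UMIs of CD11c-selected cells, and 686 UMIs (30.8%) were in cells of no gate. The 9 B cells had 7 *Siglecg* UMIs among 30345 UMIs in all, a share above the level of migratory DC. It rests on too few cells for the order, 8 of them in the third barcode run.

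*Siglech* was the pDC gene, with a lower second level, among gates of at least 50 cells, in *Tmem119* macrophages. The 54 pDC of the CD4/CD8-selected table had 1889 CPM (1768 to 2016) from 904 UMIs, and 2004 and 1538 in the 2 runs with at least 10 such cells. All but 1 of these cells (98.1%) had a UMI, with a median of 16 and a maximum of 41, against 0.0771% of CD8 T cells at a median depth of 4721 UMIs compared with 8953. At 2000 UMIs per cell the shares were 96.2% and 0.0202%. The level was 435 times that of the macrophages of the table (4.34 CPM), with an interval of 341 to 562. Without the third run the macrophages had 11.8 CPM and the ratio was 155. The 15 pDC of the CD11c-selected table had 1141 CPM (966 to 1338), in 12 cells. Macrophage check markers in the CD4/CD8-selected pDC summed to 345 CPM, with *Mrc1* and *Ms4a7* at 0, and the 5 pDC markers to 4520 CPM.

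Many cells that passed the pDC gate passed another lineage gate as well and had been set aside, and 58.0% of the 2369 *Siglech* UMIs of the CD4/CD8-selected table were in cells of several lineages. With these cells allowed (a choice made after the data had been seen) the gate had 137 cells at 919 CPM (881 to 957). Those that also passed the cDC1 gate (21 cells) had 1630 CPM, those that also passed the T cell gate (24 cells) 1185, and those that also passed the macrophage gate (13 cells) 391. All these levels were above that of any gate without pDC. In the CD11c-selected table the gate with other gates allowed had 55 cells at 415 CPM (380 to 453), of which 31 had a UMI. There, cells that also passed the cDC1 gate (11) had 1365 CPM. Those that also passed the macrophage gate (16) had 180 CPM (142 to 224), in 6 cells.

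In CD11c-selected cells, *Tmem119* macrophages had 19.0 CPM of *Siglech* (17.3 to 20.8), and 40.1, 22.3, 25.8, 12.1, 9.41 and 19.4 in the 6 runs, a wider spread than that of *Siglece* in the same cells. Resident-like macrophages had 3.99 CPM and were lower in 6 of 6 runs, the fold being 4.77 (2.40 to 11.1). Macrophages of no subgate had 8.04 CPM and were also lower in 6 of 6 runs. The *Il10* gate had 2.19 CPM and was 8.67-fold lower (4.53 to 19.1), or 30.1-fold without the second run. The *Thbs1* and lipid-associated macrophages had 2 *Siglech* UMIs each (0.665 and 0.660 CPM). The *Tmem119* gate of the CD4/CD8-selected table had 14.2 CPM (10.1 to 19.5), an interval that overlaps that of the CD11c-selected gate, and was at least 15.8-fold above its lipid-associated gate, which had no UMI. Without the third run that gate has 11 cells and gives no bound. The resident-like gate of the CD4/CD8-selected table had only 43 cells. Its 2 runs with at least 10 cells gave 0 and 56.2 CPM of *Siglech*, so it was not ordered against the *Tmem119* gate. A *Siglech* UMI was seen in 12.2% of *Tmem119* macrophages and in 1.27% of the deeper lipid-associated ones. *Tmem119* and *Siglech* both also serve as markers of microglia, the macrophages of the brain.

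Other family members gave little. *Siglec15* had no UMI in either table. *Mag*, the Siglec of myelin, was highest in *Ear2* *Fn1* myeloid cells at 10.5 CPM (8.96 to 12.2; runs 8.07 to 14.0), followed by 7.11 CPM in *Tmem119* macrophages of the CD4/CD8-selected table.

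Over the 25 gates of at least 50 cells, *Siglec1* and *Cd22* had the most similar profiles of any pair (Pearson r of log2(CPM + 1), 0.90), followed by *Cd33* and *Siglece* (0.73), and *Cd22* and *Siglecg* the least (−0.30). These correlations describe gates that share libraries and depth and have no p-value. Genes were ranked by likeness among the 12817 with at least 200 UMIs that were neither members nor used to gate. Of these, the 5 genes most like *Siglec1* were *4930430E12Rik* (r = 0.97), *Folr2* (0.96), *Ccl12* (0.96), *C3ar1* (0.95) and *Aoah* (0.95). Those most like *Cd22* were the lipid receptor gene *Trem2* (0.96), the scavenger receptor gene *Msr1* (0.96), *Plxna4os1* (0.95), *Tfec* (0.95) and *Kcnk13* (0.94). For *Cd33* they were *Gm47754* (0.95), *I830077J02Rik* (0.94), *P2ry13* (0.92), *Lair1* (0.91) and *B3gnt8* (0.91). For *Siglece* they were *Pilrb2* (0.88), *Pilrb1* (0.88), *Gm15880* (0.86), *Mtr* (0.86) and *Ccr1* (0.85), and for *Siglecf* *Gpd1l* (0.89), *9130015A21Rik* (0.86), *Hdc* (0.86), *Mboat7* (0.85) and *Adamdec1* (0.85). For *Siglecg* they were *Cmtr1* (0.89), *H2-DMb2* (0.88), *Strip2* (0.87), *Ikbkb* (0.85) and *Gm16094* (0.85), and for *Siglech* *Klra17* (0.90), *Gm5617* (0.88), *Cd300c* (0.87), *Khk* (0.86) and *Gm26857* (0.84). Of the 5 genes named for each member by this measure, 1 to 3 were among the 5 when 10 in place of 1 was added to the CPM.

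Detection of several of the 7 transcripts in the same cell was counted in macrophages. Of 5514 CD11c-selected macrophages with at least 2000 UMIs, 62.5% had a UMI of any member and 25.7% of at least 2. After thinning to 2000 UMIs the shares were 23.1% (22.0 to 24.2) and 2.21%. *Cd33* and *Siglece* were then seen together in 45 cells (0.816%; 0.596 to 1.09), where the product of their single shares gives 35.8 (0.650%). *Siglec1* and *Cd33* were seen together in 22 cells, with 22.1 from the product. *Siglec1* and *Siglece* coincided in 4 (0.0725%; 0.0198 to 0.186), with 8.40 (0.152%). The intervals cover the product, so neither *Siglece* pair differed from it beyond counting error. Without thinning, *Siglec1* and *Cd22* coincided in 147 cells, with 68.3 from the product, and *Siglec1* and *Siglech* in 30, with 52.2. After thinning each of these pairs coincided in 3 cells, with 2.70 and 3.25 from the product. Deeper cells have more UMIs of every gene, so the unthinned counts also hold depth.

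The Siglec genes were then set beside 39 genes of their pathway, the adapters and kinases, the enzymes that make, attach and remove sialic acid, and carriers of sialylated ligands. A gene was compared when both gates together had at least 50 UMIs and was called at 2-fold or more. Between the macrophages and the CD8 T cells of the CD4/CD8-selected table, 22.2% of the 12184 genes compared were higher in macrophages and 28.9% lower. *Cd33* was 880-fold, *Siglec1* 304-fold, *Siglece* 45.6-fold, *Siglech* 23.9-fold and *Cd22* 19.0-fold higher in macrophages, and *Siglecf* and *Siglecg* had too few UMIs. *Siglec1*, *Cd33*, *Siglece* and *Siglech* passed the minimum of UMIs only through the macrophages, where they were high, and nothing is read from how many members passed. Without the third run, which held most of these macrophages, the folds were 1551 for *Cd33*, 551 for *Siglec1*, 140 for *Siglece* and 68.5 for *Siglech*. *Siglec1* and *Cd33*, with 4 UMIs each in CD8 T cells, also moved with other runs, to 509-fold without the second and 2773-fold without the fourth. Of 31 pathway genes compared, 9 were higher and 13 lower in macrophages, with a median log2 fold of −0.60 against −0.26 for all genes. With the third run left out, 9 of 31 were higher and 10 lower, where 20.2% of all genes compared were higher and 26.2% lower. *Cmah*, *St3gal2*, *St3gal4* and *St3gal6* then fell short of 2-fold and *Ptpn6* passed it. *St3gal3*, at 2.01-fold, fell short without the first, the fourth, the fifth or the sixth run.

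The adapters divided. *Tyrobp*, which encodes the DAP12 adapter of Siglec-H, was at 3078 CPM in macrophages and 12.6 in CD8 T cells (244-fold), and the kinase genes *Syk* and *Lyn* were 310-fold (531 without the third run) and 37.6-fold higher. *Hcst*, which encodes the DAP10 adapter, was lower in macrophages, at 65.5 against 664 CPM. Of 11 sialyltransferase genes, 5 were higher and 5 lower. *St6gal1*, whose enzyme makes the α2,6-linked sialic acid that CD22 prefers, was 15.5-fold higher in macrophages and *St3gal1* 8.95-fold, whereas *St8sia1* and *St6galnac3* were 62.5-fold and 42.9-fold lower, or 19.1-fold and 13.3-fold without the third run. *St8sia1* was 157-fold lower without the second run and *St6galnac3* 84.2-fold without the fourth. *Gne*, the gene of the first enzyme of sialic acid synthesis, and *Cmah*, whose enzyme makes N-glycolylneuraminic acid, were 4.38-fold and 3.16-fold lower, *Cmah* by 1.32-fold without the third run. The sialidase gene *Neu1* was 2.95-fold higher and *Neu3* 5.78-fold lower (9.41-fold without the third run). Among 5 carriers, *Spn* (CD43) was 13.9-fold, *Muc1* 5.61-fold, *Selplg* 4.47-fold and *Ptprc* (CD45) 2.74-fold lower in macrophages.

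**Figure D4:**
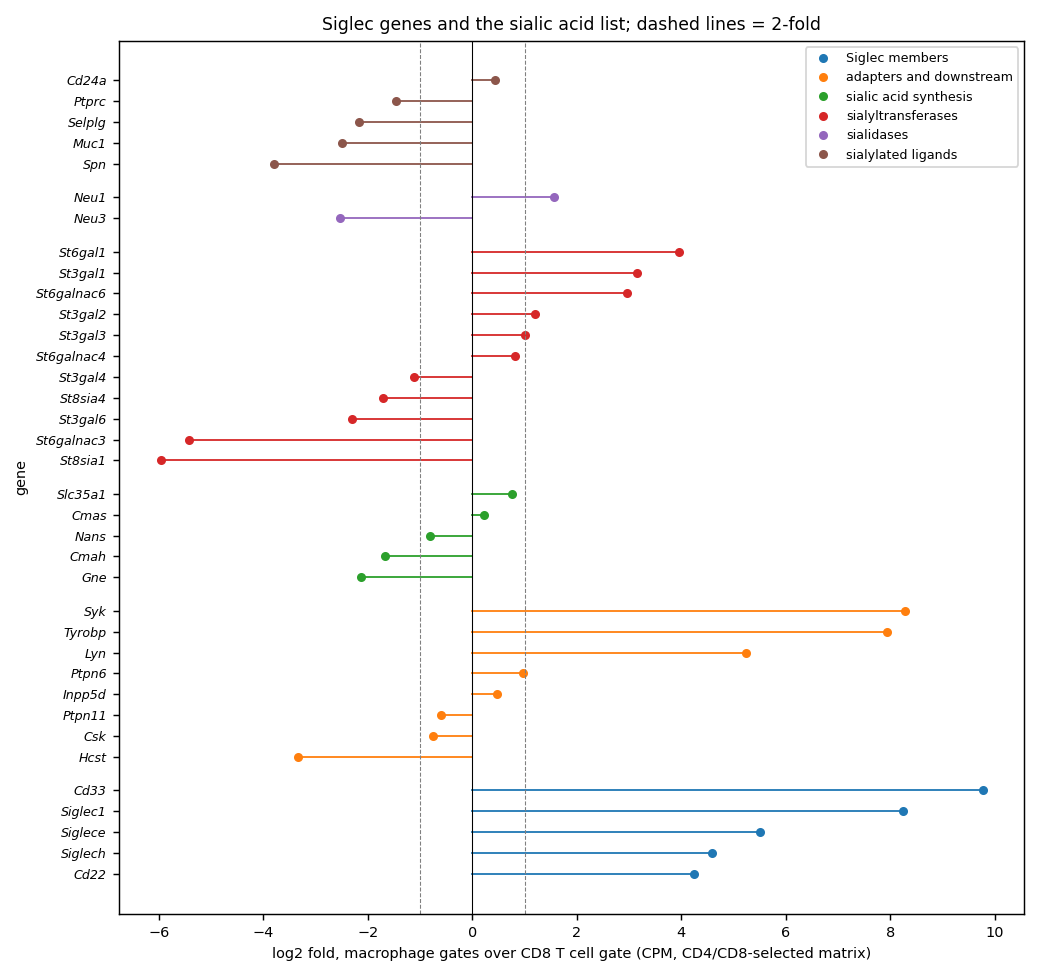
log2 fold of CPM in macrophage gates over the CD8 T cell gate of the CD4/CD8-selected table for the 5 Siglec genes and the 31 pathway genes with at least 50 UMIs, colored by group; dashed lines mark 2-fold. The 5 Siglec genes drawn lie to the right of the 2-fold line, while sialyltransferases lie on both sides and 4 of 5 ligand carriers lie to the left.

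Between pDC and macrophages of that table, 21.4% of the 9494 genes compared were higher in pDC and 19.1% lower. Of 5 members compared, *Cd33* and *Siglech* were higher, and *Siglec1* and *Cd22*, with no UMI in pDC, were at least 2.20-fold and 3.41-fold lower. *Siglec1*, *Cd22* and *Siglece* passed the minimum of UMIs only through the macrophages and could not be called higher in pDC. Nothing is read from how many members were called. Without the second run the bounds were 1.46 and 2.16, and *Siglec1* stayed at 2-fold only on leaving out the fifth. *Siglece*, with 0 UMIs in pDC, was at least 2.78-fold lower without the third run. Of 27 pathway genes, 11 were higher and 4 lower in pDC. Without the third run 6 were higher and 2 lower of 23 compared, where 17.1% of all genes compared were higher and 20.7% lower. With at least 200 UMIs asked, 7 of 21 were higher, beside 1234 of all 6619 genes compared. At 3-fold, 2 of 27 were lower, beside 1189 of all 9494. *Cmah* (36.7-fold, or 14.6-fold without the third run), *Gne* (29.9-fold) and *Slc35a1* (2.13-fold), the gene of the transporter that brings activated sialic acid into the Golgi, were higher in pDC. The 4 carriers compared were also higher, *Cd24a* 49.0-fold, *Selplg* 5.68-fold, *Spn* 5.24-fold and *Ptprc* 2.58-fold. Of 9 sialyltransferase genes, *St8sia4* (24.6-fold, or 15.3-fold without the third run) and *St3gal4* (3.12-fold) were higher, and *St6gal1* (2.47-fold), *St6galnac4* (2.42-fold) and *St6galnac6* were lower. Without the second run *St6gal1* was 4.55-fold lower, and without the first *St6galnac6* was 8.94-fold lower. *Neu1* was 5.02-fold lower. *Ptpn6*, which encodes the phosphatase SHP-1, was 3.27-fold higher and *Csk* 2.08-fold. On leaving out the third run, *Csk*, *Slc35a1*, *St3gal4*, *St6gal1* and *St6galnac4* fell short of 2-fold, and *Gne* and *Spn* had too few UMIs. *Csk* and *Slc35a1* also fell short without the second run.

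Between resident-like and lipid-associated macrophages of the CD11c-selected table, 11.5% of the 7332 genes compared were higher in resident-like cells and 8.32% lower. Of 3 members compared, *Cd33* was higher and *Cd22* lower, and *Siglec1*, at 1.68-fold, was short of the 2-fold line but past it without the fourth run (2.03-fold). *Siglece*, *Siglecf*, *Siglecg* and *Siglech* had too few UMIs. *Cd22* passed the minimum only through the lipid-associated cells (59 UMIs against 15), and nothing is read from how many members were called. Of 23 pathway genes, 4 were higher and 3 lower. *Cmah* was at 32.9 CPM in resident-like cells with no UMI in lipid-associated cells, at least 33.3-fold (18.8-fold without the fifth run), and the sialyltransferase genes *St3gal6* (12.1-fold), *St6gal1* (2.92-fold) and *St3gal4* (2.61-fold) were higher. *Cd24a* (10.8-fold, or 25.8-fold without the first run), *Tyrobp* (2.22-fold) and *Cmas* (2.17-fold) were lower. *Cmas* fell short without the third or the fifth run, and *St3gal6* had too few UMIs on leaving out any run but the fourth. With at least 200 UMIs asked, 1 of 15 genes was higher, beside 461 of all 3459 compared. At 3-fold, 2 of 23 were higher and 1 lower, beside 395 and 324 of all 7332.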

How the data were processed

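Transcripts of single cells were measured on the 10x Genomics platform in 12 samples. The values used here are raw UMI counts, which the authors deposited as 2 tables of genes by cells, each pooling 6 samples under barcodes that name no sample. Objects processed further by the authors were not analysed here. The submitters' processing notes name Cell Ranger 3.0.2 and mm10. No source used here states how the authors filtered cells.

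A minimum of 200 detected genes per cell removed 341 CD11c-selected and 295 CD4/CD8-selected barcodes. UMIs were summed over each gate per 1000000 UMIs of it. Intervals were exact Poisson for levels and Clopper-Pearson for shares, and no differential test was run. Gates rest on raw UMIs of marker genes other than the members (not every gate gene is reported here), and gates under 50 cells were left out of the order. Shares were also taken after thinning each cell at random to 2000 UMIs, with shallower cells left out.

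The text names the 7 members, *Mag* and *Siglec15*, and the 5 genes most like each member. These were drawn from genes with at least 200 UMIs that were neither members nor used to gate. It also names examples from a list of 39 pathway genes (*St6galnac2* not matched) that is otherwise given by its counts. The members and lists were chosen with earlier results of these data known. Symbols matched GENCODE M21 (GRCm38) for 30431 of 31053 rows (98.0%), the 7 members included. Promoters are from RefSeq (GRCm38.p6) and matched 6 of 7. Scripts in Python 3.11.15 with numpy 2.4.6, pandas 2.3.3 and scipy 1.17.1 were tested on simulated data. Alternatives were a mean over cells, doubled gate minima, cells with at least 1000 UMIs, cells with high mitochondrial shares or the deepest 5% left out, each barcode run left out, and other limits for the pathway list.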

Additional observations from a re-analysis of the deposited data

How the results depend on the processing

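The level of each member in its highest gate moved by less than its counting interval under a mean over cells, doubled gate minima, a minimum of 1000 UMIs per cell, and omission of cells with over 10% mitochondrial UMIs or of the deepest 5%. Leaving out 1 barcode run at a time gave 49.0 to 61.6 CPM for *Siglec1*, 27.9 to 79.6 for *Cd22*, 270 to 316 for *Cd33*, 74.3 to 107 for *Siglece*, 481 to 531 for *Siglecf*, 128 to 142 for *Siglecg* and 1830 to 1977 for *Siglech*. The highest value for *Cd22* came without the third run, from 11 cells. Where such a change took the leading gate under 50 cells, another gate led, for *Cd22*, *Cd33*, *Siglece*, *Siglecf* and *Siglech*. Among alternatives chosen after the data had been seen, *Siglecf* was 403 CPM in a looser neutrophil gate. In the cells of the neutrophil gate without an *Apoe* UMI, *Siglecf* was 406 and *Siglece* 144. *Siglech* was 919 in the CD4/CD8-selected pDC gate with other gates allowed. The count of pathway genes higher in pDC than in macrophages was 7 of 21 compared with at least 200 UMIs, in place of 11 of 27. The count lower was 2 in place of 4, both of 27, at 3-fold. Between resident-like and lipid-associated macrophages the count higher was 1 of 15 compared with at least 200 UMIs, in place of 4 of 23. At 3-fold it was 2 of 23, and the count lower was 1 in place of 3. Leaving out 1 barcode run at a time, also chosen after the data had been seen, gave 8 to 10 genes higher and 10 to 13 lower in macrophages than in CD8 T cells, 6 to 12 higher and 2 to 6 lower in pDC than in macrophages, and 3 to 4 higher and 2 to 3 lower in resident-like than in lipid-associated macrophages. The lowest counts for pDC came without the third run, which held 457 of the 871 macrophages. No paired analysis was possible because the barcodes are tied to no sample or replicate number and no test was run. Depth limits the neutrophil gate (248415 UMIs) and the pDC gate (478561 UMIs) most, where a count of 0 allows 12.1 and 6.27 CPM.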
